A study of Mus musculus with 8 samples.

Results

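The aryl hydrocarbon receptor pathway was followed through 8 genes in RNA sequencing of MC903-treated mouse skin with and without phytic acid. These were the receptor gene Ahr, the gene of its partner Arnt, the repressor genes Ahrr and Tiparp, and the target genes Cyp1a1, Cyp1b1, Aldh3a1 and Nqo1. They were chosen by gene name, and each of the 8 names was found among the 21885 named genes of the deposited table. The skin of 4 libraries had received MC903 alone (the group titled control), and that of the other 4 had received MC903 plus phytic acid. MC903 (calcipotriol) is an analogue of vitamin D whose application to mouse skin brings on a dermatitis resembling atopic dermatitis, and phytic acid is the inositol hexaphosphate of plant seeds. No group of untreated skin was analysed here, so a value shows a difference between skins that had both received MC903. The sources used here do not give strain, age, dose, body site or duration, nor whether a library is from a mouse of its own. The p-values therefore measure the spread between these libraries, which may be technical.

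The aryl hydrocarbon receptor is a transcription factor of the bHLH-PAS family that waits in the cytoplasm with heat shock chaperones. On binding a ligand, such as a dioxin, a tryptophan photoproduct or a microbial indole, it moves to the nucleus, pairs with ARNT and binds xenobiotic response elements in the DNA. Cytochrome P450 genes of family 1 are its classic targets, and it also induces AHRR and TIPARP, which then restrain it. In skin the receptor is made by keratinocytes and by immune cells such as Langerhans cells, and it is known for roles in barrier formation and in the response to pollutants. The title of the series names a microbial indole, and microbial indoles are among the known ligands of the receptor. The treatment labels of these libraries name only MC903 and phytic acid, and no indole.

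The deposited unit is FPKM, a fragment count divided by gene length and library size, and multiplying by exon length recovered totals of 31676934 to 42997272 reads. The 4 MC903 libraries were the shallowest. Keratinocyte markers were present in every library, as the label skin implies, and 8 skeletal muscle markers, 7 of them called higher, summed to 3101 to 3635 FPKM with MC903 and to 6607 to 7397 with phytic acid. MC903 replicate 3 stood apart from the other MC903 libraries. Its 8 hair follicle markers summed to 3475 FPKM, against 175 to 207 in the other MC903 libraries and 368 to 395 with phytic acid. Outside replicate 3 most of that sum was Krt79 alone, at 149 to 184 FPKM with MC903 and 353 to 376 with phytic acid. Its 4 melanocyte markers summed to 85.9 FPKM, against at most 4.15 in any other library. Results for the members are therefore given with and without that library.

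The receptor gene and Aldh3a1 rose with phytic acid, Tiparp and Nqo1 fell, and Arnt, Cyp1a1 and Cyp1b1 did not pass the test. Of the 7 members that were abundant enough to be tested (1 FPKM or more in 4 or more libraries), 2 were called higher and 2 lower. A gene was called where its limma p, adjusted by Benjamini and Hochberg's method over 12165 tested genes, was under 0.05. Among all genes tested 25.8% were called, 14.2% higher and 11.6% lower, so that calls are common in this comparison, and without MC903 replicate 3 the share was 32.7%. With median-of-ratios scaling the calls over all genes were 1469 higher and 1828 lower, in place of 1722 and 1412. In 4 of the 7 tested members no library of one group reached into the range of the other, 2 in each direction, against 27.3% of all genes tested (14.3% higher and 13.0% lower). The median log2 fold change of the 7 was -0.04, against 0.05 for all genes, since the members moved in opposite directions. The remaining member, Ahrr, lay below the expression limit and is described from its values.

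**Figure D1:**
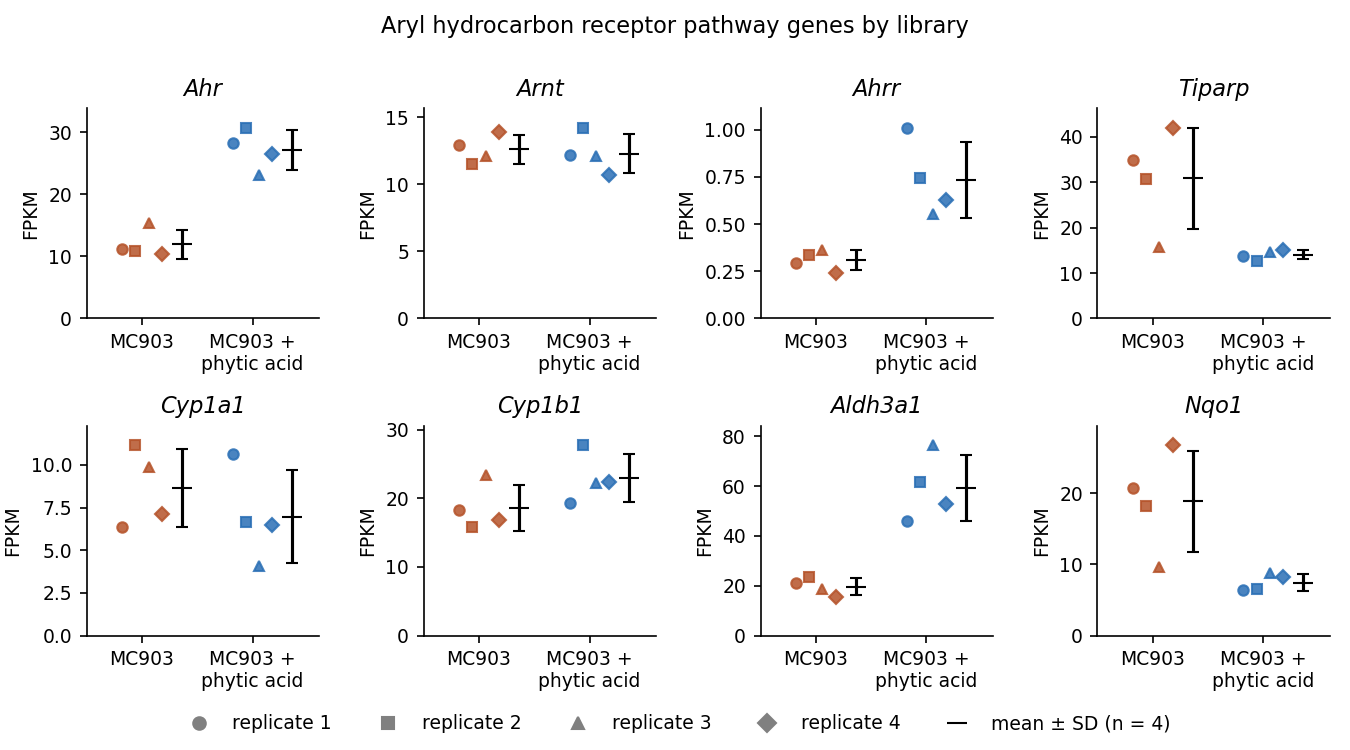
FPKM (vertical axes, linear, from 0) of each of the 8 members in the 4 MC903 libraries and the 4 libraries of MC903 plus phytic acid, with 1 symbol per replicate number and the mean ± SD of each group. Ahr, Ahrr and Aldh3a1 were higher in each phytic acid library than in any MC903 library, Tiparp and Nqo1 were lower, and MC903 replicate 3 (triangle) lay next to the phytic acid libraries for the last pair.

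Ahr encodes the receptor itself. Its gene spans 35497974 to 35535038 on chromosome 12 of GRCm38, the assembly that mm10 names. In the order of the replicate numbers, which is kept for each member, Ahr had 11.2, 10.8, 15.4 and 10.3 FPKM with MC903 alone, and 28.2, 30.7, 23.1 and 26.4 with phytic acid. The lowest phytic acid library was thus above the highest MC903 library, which was replicate 3. The group means were 11.9 ± 2.35 and 27.1 ± 3.20 FPKM (SD, n = 4 each), a ratio of 2.27. On the scale of log2(FPKM + 1) the change was 1.13 ± 0.14 (SE), with an adjusted p of 0.000771 by limma, and without MC903 replicate 3 it was 1.25 (adjusted p 8.67e-05). The reads recovered for Ahr were 2142 to 3578 per MC903 library and 6131 to 7256 per phytic acid library, so counting error was small beside the spread of the libraries. A noncoding gene on the opposite strand, Gm48236, overlaps Ahr, and whether reads were counted by strand is not known from the sources used here. The same holds for Tiparp and the pseudogene 4931440P22Rik, and Arnt overlaps the pseudogene Gm42672 on its own strand.

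Markers of Langerhans and dendritic cells, which express the receptor, were higher in the same libraries as Ahr. All 7 tested markers of the 10 were called higher, and the 10 summed to 139 to 346 FPKM with MC903 and to 643 to 1362 with phytic acid. Xcr1 was listed at 0 in MC903 replicate 4 alone. Of 8 suprabasal keratinocyte markers, 5 were called higher and 1 lower, and their sum went from 3650 to 6238 FPKM up to 7928 to 10170. Basal keratinocyte markers summed to less with phytic acid (2632 to 3112 FPKM against 4385 to 7942), with 2 of 8 called higher and 1 lower. That sum was carried by Krt14, the one called lower, and the other 7 summed to 976 to 1324 FPKM with MC903 and to 1382 to 1581 with phytic acid. Macrophage markers (3 of 7 higher, 4 not called) summed to 621 to 1055 FPKM and 1079 to 1528. The largest part was Lyz2, at 342 to 510 and 639 to 908 FPKM, and without it the macrophage sums overlap. Schwann cell markers (3 of 5 higher) summed to 78.5 to 106 and 125 to 168 FPKM. Of 4 tested T cell markers 3 were higher, with sums that overlapped (18.1 to 31.6 and 25.1 to 51.6 FPKM). In whole skin, a changed share of a cell type and a changed amount of RNA per cell cannot be told apart, and the part of these cell types in the rise of Ahr was not tested. Centred on the 8 basal keratinocyte markers, the change of Ahr was 1.14. Those markers went both ways and nearly cancelled, so this centring could hardly move any fold change and tells nothing of cell shares.

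Arnt encodes the partner without which the receptor cannot bind DNA, and which also serves the hypoxia-inducible factors. It was the steadiest of the members. It stood at 12.9, 11.5, 12.1 and 13.9 FPKM with MC903 and at 12.2, 14.2, 12.1 and 10.7 with phytic acid. The groups overlapped almost fully, at 12.6 ± 1.05 and 12.3 ± 1.46 FPKM (SD, n = 4 each). The log2 fold change was -0.04, with a 95% interval of -0.27 to 0.20 (adjusted p = 0.826 by limma). In the MC903 libraries Ahr and Arnt were at similar levels per gene length, and with phytic acid each library had more Ahr than Arnt.

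The repressor genes went in opposite directions. Ahrr encodes a relative of the receptor that competes with it for ARNT and shuts off its targets, and is itself a target. It was low throughout, at 0.294, 0.334, 0.363 and 0.241 FPKM with MC903 and 1.01, 0.744, 0.552 and 0.626 with phytic acid. The lowest phytic acid value exceeded the highest MC903 value. The means were 0.308 ± 0.0529 and 0.733 ± 0.202 FPKM (SD, n = 4 each), a ratio of 2.38. In recovered reads the values were 88, 101, 129 and 85 against 389, 269, 224 and 241, so that the low FPKM still rested on reads in each library. The difference of the mean log2(FPKM + 1) was 0.40, with a two-sided exact permutation p of 0.0286, the smallest that 4 libraries against 4 can give. With no expression limit, where 16.5% of 18483 genes were called, Ahrr passed by limma (adjusted p = 0.0156). By voom on the recovered reads without a limit its log2 fold change was 1.23 (adjusted p = 0.0117 by limma).

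Tiparp encodes a mono-ADP-ribosyltransferase that modifies the receptor and promotes its breakdown, and it too is a target. It stood at 34.9, 30.8, 15.7 and 42.1 FPKM with MC903 and at 13.8, 12.7, 14.6 and 15.1 with phytic acid. The MC903 libraries were widely spread, and replicate 3 came within 1 FPKM of the highest phytic acid library. The means were 30.9 ± 11.1 and 14.1 ± 1.02 FPKM (SD, n = 4 each), which is 2.20 times as much without phytic acid. Tiparp fell, with a log2 fold change of -1.0 ± 0.25 (SE) and an adjusted p of 0.0171 by limma. Without MC903 replicate 3 the change was -1.28 (adjusted p 0.000122), and without MC903 replicate 1 it was -0.92 and no longer passed (adjusted p 0.0524). Over the 8 fits that each left out a library the adjusted p ranged from 0.000122 to 0.0524.

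Among the target genes, Aldh3a1 had the largest change of the tested members. It encodes an aldehyde dehydrogenase that clears aldehydes from lipid peroxidation and is a long-known gene of the dioxin-inducible battery. It stood at 21.0, 23.4, 18.9 and 15.4 FPKM with MC903 and at 46.0, 61.8, 76.6 and 53.0 with phytic acid. Each phytic acid library was above each MC903 library, and the phytic acid libraries were the more widely spread. The means were 19.7 ± 3.39 and 59.3 ± 13.2 FPKM (SD, n = 4 each), a ratio of 3.02. The log2 fold change was 1.54 ± 0.17 (SE), with an adjusted p of 0.000588 by limma, and it was 1.52 without MC903 replicate 3. The gene lies at 61207537 to 61218421 on chromosome 11, and no other annotated gene overlaps it. The suprabasal keratinocyte markers given above were higher in the same libraries, and their part in the rise of Aldh3a1 was not tested.

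Nqo1 encodes a quinone reductase that is a target both of the receptor and of NRF2, the transcription factor of the oxidative stress response. It stood at 20.8, 18.2, 9.58 and 26.8 FPKM with MC903 and at 6.35, 6.54, 8.78 and 8.21 with phytic acid. As with Tiparp, MC903 replicate 3 was the lowest of its group and lay next to the phytic acid libraries, although the groups did not overlap. The means were 18.9 ± 7.15 and 7.47 ± 1.21 FPKM (SD, n = 4 each), a ratio of 2.52 in favour of MC903 alone. Nqo1 fell, with a log2 fold change of -1.16 ± 0.26 (SE) and an adjusted p of 0.0114 by limma. Without MC903 replicate 3 the change was -1.43 (adjusted p 0.000265), and the call held in each of the 8 fits that left out a library (highest adjusted p 0.0367).

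Wound keratinocyte markers were lower in the same libraries as Tiparp and Nqo1. Of 7 such markers 6 fell and 0 rose, and they summed to 4174 to 9251 FPKM with MC903 and to 843 to 1497 with phytic acid. MC903 replicate 3 had the lowest sum of its group, 4174. None of the markers was at 0. Their part in the fall of Tiparp and Nqo1 was not tested. Cell cycle genes, 5 of 8 of them lower, summed to 116 to 150 FPKM with MC903 and to 56.8 to 97.8 with phytic acid.

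Cyp1a1 encodes the cytochrome P450 that is the usual readout of receptor activity, since ligands induce it strongly from a low base. It stood at 6.35, 11.2, 9.90 and 7.12 FPKM with MC903 and at 10.7, 6.68, 4.10 and 6.46 with phytic acid. The groups overlapped widely: phytic acid replicate 1 was above all MC903 libraries but replicate 2, and phytic acid replicate 3 was the lowest of the 8. The means were 8.64 ± 2.27 and 6.97 ± 2.72 FPKM (SD, n = 4 each). The change on the log2 scale was -0.30 ± 0.25 (SE) and missed the threshold (adjusted p = 0.400 by limma), and its 95% interval ran from -0.86 to 0.25. The estimate stayed below 0 in the 22 other settings run, from -0.51 to -0.09, and was -0.24 without MC903 replicate 3.

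Cyp1b1 encodes a related P450 that is also made in dermal cells and metabolises steroids and polycyclic hydrocarbons. It stood at 18.3, 15.8, 23.4 and 16.8 FPKM with MC903 and at 19.4, 27.8, 22.2 and 22.4 with phytic acid. The groups overlapped through MC903 replicate 3, the highest of its group. The means were 18.6 ± 3.35 and 22.9 ± 3.52 FPKM (SD, n = 4 each), and the change on the log2 scale, 0.29 ± 0.14 (SE), missed the threshold (adjusted p = 0.164 by limma, 95% interval -0.03 to 0.61). Without MC903 replicate 3 it was 0.40 and passed (adjusted p 0.0372), as it did with library weights (adjusted p 0.0473). Over the fits that each left out a library the adjusted p ranged from 0.0372 to 0.340. Fibroblast markers, 3 of 8 of them higher and 5 not called, summed to 436 to 526 FPKM with MC903 and to 587 to 1146 with phytic acid. The largest part was Dcn, at 186 to 252 and 288 to 430 FPKM, and without it the fibroblast sums overlap. The part of these markers in the values of Cyp1b1 was not tested. Cyp1a2, the third member of P450 family 1, is a liver gene and had 1 recovered read in MC903 replicate 2 and 0 in the other 7 libraries.

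**Figure D2:**
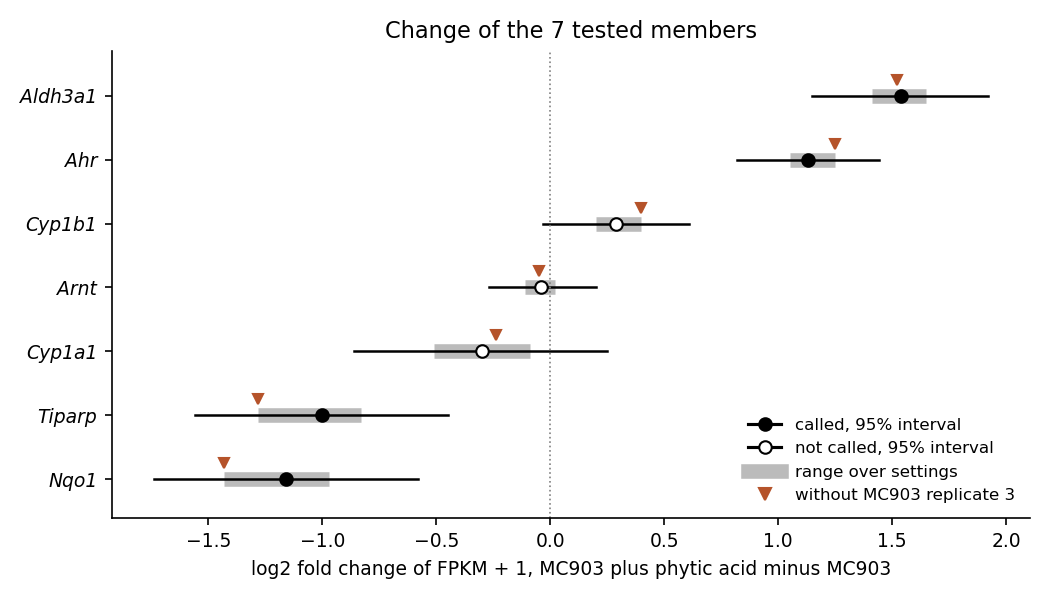
Log2 fold change of FPKM + 1 (horizontal axis, MC903 plus phytic acid minus MC903) of the 7 tested members, with the 95% interval as a line, the range over the main and 22 other settings as a grey bar, and the value without MC903 replicate 3 as a triangle. Filled points passed the test: Aldh3a1 (1.54) and Ahr (1.13) lie above 0, Tiparp (-1.0) and Nqo1 (-1.16) below, and the intervals of Cyp1b1, Arnt and Cyp1a1 cross 0.

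The order of the members by level, which FPKM allows because it is per gene length, differed between the groups. With MC903 the order of the mean FPKM was Tiparp (30.9), Aldh3a1 (19.7), Nqo1 (18.9), Cyp1b1 (18.6), Arnt (12.6), Ahr (11.9), Cyp1a1 (8.64) and Ahrr (0.308). Neighbours in that order overlapped in their library values, except that Cyp1b1 was above Arnt and Cyp1a1 above Ahrr in each pair of libraries. With phytic acid the order was Aldh3a1 (59.3), Ahr (27.1), Cyp1b1 (22.9), Tiparp (14.1), Arnt (12.3), Nqo1 (7.47), Cyp1a1 (6.97) and Ahrr (0.733). There Aldh3a1 was apart from Ahr, Cyp1b1 from Tiparp, Arnt from Nqo1 and Cyp1a1 from Ahrr, and the other neighbours overlapped. Ahr thus went from the sixth place to the second place, and Tiparp from the first place to the fourth place.

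The members also differed in how they varied within a group. Among the MC903 libraries Tiparp and Nqo1 had the same order, highest in replicate 4, then 1, 2 and 3. Ahr was highest in replicate 3 and lowest in replicate 4. Cyp1a1 followed neither, with replicates 2 and 3 highest. Within the phytic acid group Aldh3a1 was highest in replicate 3, the library in which Ahr and Cyp1a1 were lowest. With 4 libraries in a group these orders are descriptions.

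**Figure D3:**
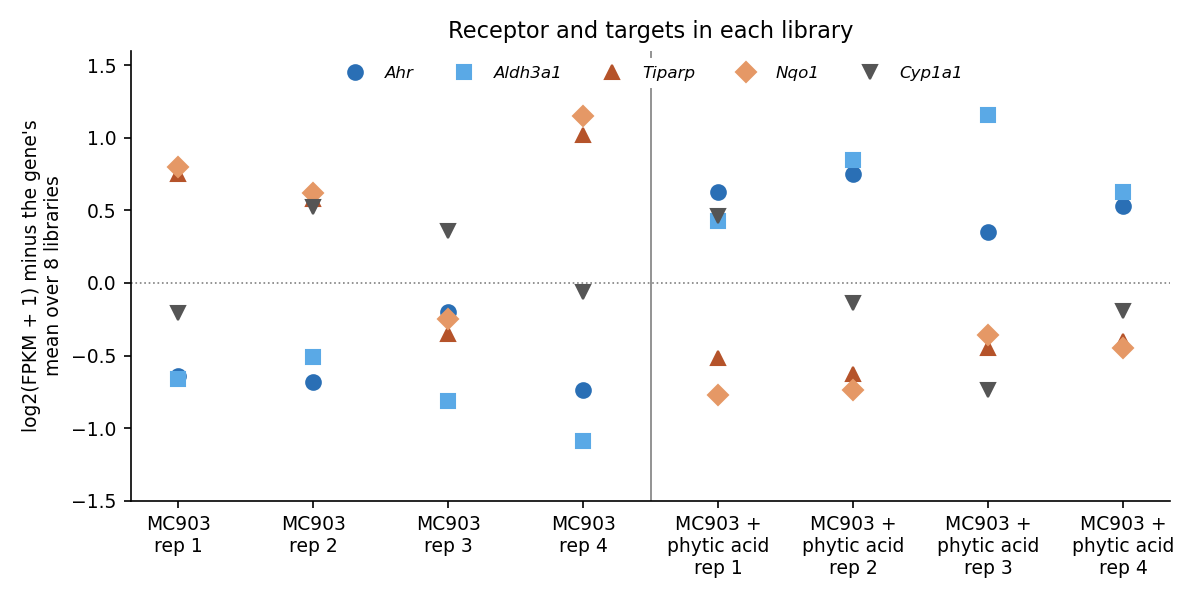
Log2(FPKM + 1) of Ahr, Aldh3a1, Tiparp, Nqo1 and Cyp1a1 in each of the 8 libraries (horizontal axis), minus the mean of the gene over the 8 libraries (vertical axis). Tiparp and Nqo1 follow each other across the libraries, at -0.35 and -0.25 in MC903 replicate 3 and between 0.58 and 1.15 in the other MC903 libraries, while Cyp1a1 runs from 0.52 to -0.74 without separating the groups.

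Across the table, the genes whose profile lay closest to a member were found by the root mean square difference of log2(FPKM + 1) over the 8 libraries, after each gene was centred on its own mean. For Nqo1 the closest of 11983 genes compared was Tiparp, at 0.119, followed by Tnfrsf22 (0.123), where the profile of Nqo1 itself varied by 0.69. For Ahr the closest were Rgmb (0.072), Phf24 (0.095) and Kcnj16 (0.098), against a variation of 0.59. For Aldh3a1 they were the epidermal lipase gene Lipn (0.142), Pkib (0.167) and Abca5 (0.174), against 0.80. For Cyp1a1 they were Tmem95 (0.155), Cyp3a57 (0.161) and Panx3 (0.165), against 0.40. These are descriptions of 8 libraries, in which any 2 genes that differ between the groups by a like amount on this scale resemble each other. Adding 1 to the FPKM shrinks the changes of low genes, and Kcnj16, Phf24 and Pkib averaged under 1 FPKM with MC903. Their means went from 0.112 to 1.36, from 0.563 to 2.22 and from 0.804 to 4.54 FPKM. A close profile is therefore not a like ratio in FPKM.

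The sequence just before the start of a gene is where a xenobiotic response element can lie, and windows of 250 bases before the RefSeq start (GRCm38.p6) were found for 6 of the 8 members. The core letters of the element, GCGTG, were searched on both strands. Of 32851 such windows of mouse genes, 28.2% held the core at least once and 2.8% at least 3 times. The windows of Cyp1a1, Cyp1b1, Tiparp and Arnt held it once each, that of Ahrr 3 times, and that of Nqo1 held none. The longer form TNGCGTG, which contains the core, was found in 4.1% of windows and among the members once, in that of Ahrr. The letters TGACNNNGC of the antioxidant response element, which NRF2 uses, were found in 10.2% of windows and among the members in that of Arnt, with 2 matches. Elements farther from the start are outside these windows, a match is not a binding site, and the absence of a match says nothing of the factor. The windows below are those of Ahrr, which was higher with phytic acid, of Tiparp and Nqo1, which fell together, and of Cyp1a1, which did not pass. They are written 5′ to 3′ on the strand of the gene with the core in capitals (CACGC where it lies on the other strand), and hold no base that the GENCODE annotation places in an exon of that gene. The Cyp1a1 window lies within the span of that gene in GENCODE, in an intron of a longer transcript that starts at 57687928, and directly before the first exon of a shorter transcript.
Ahrr, minus strand, chr13:74292332-74292581: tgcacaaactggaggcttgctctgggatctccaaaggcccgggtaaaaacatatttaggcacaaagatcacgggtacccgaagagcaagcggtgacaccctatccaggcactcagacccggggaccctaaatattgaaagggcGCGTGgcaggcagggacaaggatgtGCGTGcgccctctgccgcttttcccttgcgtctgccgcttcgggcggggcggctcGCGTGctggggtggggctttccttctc
Tiparp, plus strand, chr3:65528197-65528409: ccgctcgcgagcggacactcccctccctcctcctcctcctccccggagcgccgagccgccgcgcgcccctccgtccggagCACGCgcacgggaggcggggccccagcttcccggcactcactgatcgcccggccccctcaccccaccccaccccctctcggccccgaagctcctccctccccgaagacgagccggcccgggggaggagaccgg
Nqo1, minus strand, chr8:107403207-107403455: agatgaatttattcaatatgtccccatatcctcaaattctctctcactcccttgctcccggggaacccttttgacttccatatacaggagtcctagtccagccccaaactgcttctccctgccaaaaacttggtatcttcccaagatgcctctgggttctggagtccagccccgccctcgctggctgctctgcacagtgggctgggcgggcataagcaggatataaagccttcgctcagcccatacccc
Cyp1a1, plus strand, chr9:57697363-57697612: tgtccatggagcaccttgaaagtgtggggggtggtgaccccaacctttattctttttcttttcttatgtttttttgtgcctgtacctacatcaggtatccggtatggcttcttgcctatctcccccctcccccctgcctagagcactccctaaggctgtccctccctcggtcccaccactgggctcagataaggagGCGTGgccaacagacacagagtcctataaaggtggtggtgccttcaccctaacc
In the Cyp1a1 window the core ends 50 bases before the start, and in that of Ahrr the nearest of the 3 ends 23 bases before it. The members with a match were Ahrr (higher, but below the expression limit), Tiparp (called lower), and Arnt, Cyp1a1 and Cyp1b1 (not called). The members called higher, Ahr and Aldh3a1, had no window to search.

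Chaperones, related bHLH-PAS partners and coregulators of the receptor were mostly not called. Of 15 tested genes of this list 1 rose and 4 fell, which is 33.3% called against 25.8% of all genes, and the median log2 fold change was -0.07 against 0.05. Hif1a, which shares ARNT as its partner and drives the hypoxia response, fell from 91.7 ± 29.7 to 24.1 ± 4.16 FPKM (SD, n = 4 each). It stood at 101, 104, 47.9 and 114 FPKM with MC903, so that replicate 3 was the lowest, and at 20.4 to 29.9 with phytic acid. Ptges3, the p23 cochaperone of the unliganded receptor, fell from 63.6 ± 2.10 to 46.5 ± 6.62 FPKM (adjusted p = 0.0154 by limma). Arntl, the clock gene that encodes BMAL1, rose from 4.91 ± 0.549 to 7.87 ± 0.673 FPKM (adjusted p = 0.00381 by limma). The chaperone genes Hsp90aa1 and Hsp90ab1 did not pass. Without MC903 replicate 1, 2 of the list fell.

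Other genes known to be induced through the receptor went both ways. Of 16 tested, 3 rose and 3 fell (37.5% called against 25.8% of all genes), with a median log2 fold change of -0.10. Gsta2, a glutathione transferase gene of the dioxin-inducible battery, rose from 1.12 ± 0.674 to 6.37 ± 0.982 FPKM (SD, n = 4 each), and 2 of 4 MC903 libraries were under the expression limit. Scin, the gene of the actin-severing protein scinderin, rose from 11.4 ± 3.57 to 31.9 ± 3.66 FPKM. In the other direction Slc7a5, a large neutral amino acid transporter that carries tryptophan and kynurenine into cells, fell from 27.6 ± 4.09 to 4.73 ± 1.24 FPKM. Its log2 fold change was -2.34 ± 0.17 (SE), with an adjusted p of 0.000143 by limma, and its libraries stood at 23.7 to 33.0 FPKM with MC903 and 3.08 to 6.07 with phytic acid. Nfe2l2, the gene of NRF2, fell from 50.5 ± 10.5 to 28.2 ± 3.03 FPKM (adjusted p = 0.00599 by limma).

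Genes linked to the receptor in keratinocytes divided in the same way, with 3 of 11 tested higher and 3 lower. That is 54.5% called against 25.8% of all genes, with a median log2 fold change of 0.19. Flg2, a filaggrin relative of the cornified layer, rose from 13.1 ± 6.42 to 82.0 ± 16.6 FPKM (SD, n = 4 each). Tslp, an alarm cytokine of keratinocytes, fell from 765 ± 452 to 20.9 ± 16.1 FPKM, and Tgm1, a cross-linking enzyme of the cornified envelope, from 49.7 ± 5.95 to 28.1 ± 2.39. The suprabasal and wound keratinocyte markers given above moved in the same libraries.

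Genes of tryptophan and indole metabolism were mostly too low to test. Of 18 with a value, 7 were tested, of which 4 fell and 1 rose (71.4% called against 25.8% of all genes). Their median log2 fold change was -0.75. Slc7a5, already counted above among the induced genes, is 1 of the 4 that fell. Slc3a2, the heavy chain that pairs with the Slc7a5 transporter, fell from 40.2 ± 2.42 to 23.7 ± 3.77 FPKM (SD, n = 4 each). Maoa, a monoamine oxidase gene, fell from 50 ± 14.1 to 19.4 ± 2.72 FPKM. Ido1, the inducible first enzyme of the kynurenine route, was below the expression limit at 0.244 ± 0.103 and 0.173 ± 0.0529 FPKM. The count of higher members was 2 without MC903 replicate 3 or phytic acid replicate 3.

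The genes of NRF2 and its inhibitor KEAP1, with known NRF2 targets other than Nqo1, were followed as a list of their own. Of 20 tested, 10 fell and 2 rose (60.0% called against 25.8% of all genes), with a median log2 fold change of -0.43. Nfe2l2, already counted above among the induced genes, is 1 of the 10 that fell. G6pdx, which supplies NADPH, fell from 47.4 ± 3.0 to 27.6 ± 2.14 FPKM (SD, n = 4 each), with an adjusted p of 0.000738 by limma. Slc7a11, the cystine transporter gene, fell from 3.51 ± 1.48 to 0.410 ± 0.143 FPKM, and MC903 replicate 3, at 1.95, was the lowest of its group. It passed the expression limit through the MC903 libraries alone, so that a gene this low with phytic acid could be tested only if it differed. The wound keratinocyte markers given above (6 of 7 lower, median log2 fold change -3.96) were lower in the same libraries, and their part in the values of this list was not tested. Gstm1, a glutathione transferase gene, rose from 38.2 ± 6.60 to 65.7 ± 1.6 FPKM. The count of lower members was 8 to 10 when a library was left out, and that of higher members was 1 when MC903 replicate 1, 2 or 4, or replicate 4 of phytic acid, was left out.

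**Figure D4:**
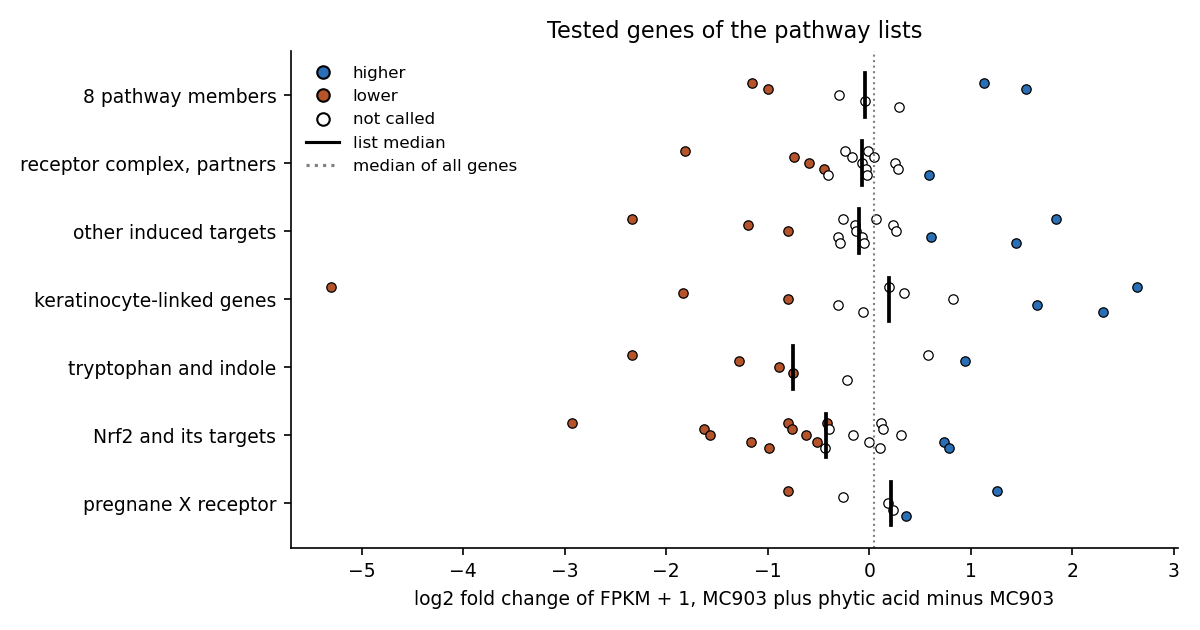
Log2 fold change of FPKM + 1 (horizontal axis, MC903 plus phytic acid minus MC903) of each tested member and of each tested gene of the 6 pathway lists (rows), with list medians as bars and the median of all 12165 genes tested (0.05) as a dotted line. Filled points passed the test; the Nrf2 row has 10 lower and 2 higher, and the other rows hold genes of each direction.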

How the data were processed

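RNA was measured in 8 mouse skin libraries, 4 per group, made from total RNA with a SMARTER mRNA-seq kit per the labels' protocols. The deposited values are FPKM, 1 per gene and library, computed by the authors. Tools named without roles in the submitters' processing notes are cutadapt, HISAT2, TopHat2 and DESeq, with the build mm10. The sources used here do not say how the FPKM were made, on which annotation or with which strand setting. FPKM is scaled to the library total, so abundant genes that change shift the rest.

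Of 21959 rows, 51 without a name (0.016% to 0.024% of a library) were left out, and the row of highest mean was kept for 21 repeated names. Exon lengths of GENCODE M21 turned FPKM into reads within 0.05 of whole numbers in each library for 97.4% of 17980 genes. Values were tested as log2(FPKM + 1), which understates changes of low genes, with limma 3.58.1 in R 4.3.3 (trended eBayes, group as the factor, two-sided). Ahrr was tested by an exact permutation test in scipy 1.17.1. The procedure was tested on simulated data.

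The members and the gene lists were chosen with earlier results of these data known. The rule for named genes took each member, up to 3 called genes of smallest p per pathway list (or 2 where none was called), Cyp1a2, Tslp and Nfe2l2, and for Cyp1a1 and the 3 called members of smallest p the 3 genes of closest profile, without predicted genes; 1 gene that the rule names is not reported here. Ido1, Hsp90aa1, Hsp90ab1, Artn, Arnt2, Kynu, Nr1i2, Cyp3a11, Krt14, Krt79, Lyz2, Dcn and Xcr1 were named after their values were seen. Alternatives were pseudocounts of 0.1 and 0.01, no expression limit, a mean FPKM of at least 5, TPM, median-of-ratios and quantile scaling, eBayes without trend or robust, library weights, a replicate block and leaving out each library. Chosen after seeing the data were voom on the recovered reads of 11660 genes, the same without a limit, and centring on 8 basal keratinocyte genes.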

Additional observations from a re-analysis of the deposited data

Results flagged for a closer look

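Ahr in MC903 replicate 3 stood far from the other libraries of its group, at 15.4 FPKM against 10.3 to 11.2. Its gap to the nearest library was 0.832 of the range of the group, just above Dixon's 95% critical value for 4 libraries. Over the 16 groups of 4 examined (8 genes in 2 conditions), chance flags about 1 in 20. The same library held 3475 FPKM of hair follicle markers. The log2 fold change of Ahr was 1.25 without it and 1.13 with it.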

How the results depend on the processing

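The 4 calls among the members were kept in direction in the 22 other settings, and Ahr (log2 fold change 1.05 to 1.25), Aldh3a1 (1.41 to 1.65) and Nqo1 (-1.43 to -0.97) kept their calls in each. Centring on basal keratinocyte genes, 1 of these settings, could hardly move any fold change. The number of members called lower ranged from 1 to 2 when a library was left out, since Tiparp was lost without MC903 replicate 1. Arnt turned to 0.01 without MC903 replicate 4 and to 0.02 without phytic acid replicate 4, and the cause was not tested. Ahrr without any 1 library kept its direction, at 0.33 to 0.45, but 3 libraries against 4 cannot give an exact permutation p below 0.0571. Over the 6 pathway lists, 12 of 73 distinct tested genes were called higher and 23 lower, which is 47.9% called against 25.8% of all genes. No setting moved either count by more than 1.5 times. Over all genes, 3134 were called, 2046 with a replicate block, 4796 with library weights and 2013 without MC903 replicate 1. No pairing of the libraries by replicate number was detected, though 4 libraries per group cannot exclude one. Deviations of same-numbered libraries correlated at -0.28, -0.10, -0.29 and 0.23, and 2 of 8 libraries correlated best with their own number. With the replicate block 2 members were called higher and 2 lower, and the changes of Ahr (1.13), Aldh3a1 (1.54), Tiparp (-1.0) and Nqo1 (-1.16) kept their calls. Depth limits Ahrr most, at 85 to 389 reads per library, and its change was 1.23 by voom on reads and 0.40 on log2(FPKM + 1).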

Other observations

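Genes of the pregnane X receptor, another sensor of foreign compounds and indoles, gave few measurable values. The receptor gene Nr1i2 and its liver target Cyp3a11 were listed at 0 in the 8 libraries. Of 6 tested genes of this list 2 rose and 1 fell, where 25.8% of all genes tested were called. The median change on the log2 scale was 0.21, against 0.05 for all genes. Cyp2b19, a keratinocyte P450 gene, stood at 16.2 ± 8.25 and 38.8 ± 12.5 FPKM (SD, n = 4 each) and rose (adjusted p = 0.0169 by limma). Cyp3a13 fell from 8.89 ± 2.74 to 4.57 ± 0.854 FPKM (adjusted p = 0.0237 by limma), a call lost when MC903 replicate 1, 2 or 4, or replicate 4 of phytic acid, was left out (0 genes of the list lower). Abcb1a, a drug efflux pump gene, rose from 2.37 ± 0.399 to 3.32 ± 0.408 FPKM with an adjusted p of 0.0498 by limma, and 1 gene of the list in place of 2 was higher in 20 of the 22 other settings, among them each pseudocount, scaling and left-out library.

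Some genes of the pathway lists lay below the expression limit and yet did not overlap between the groups, and they were picked for that. Artn, which encodes the nerve growth factor artemin and is induced through the receptor in keratinocytes, stood at 0.756 to 1.40 FPKM with MC903 and at 0.0774 to 0.174 with phytic acid. Arnt2, the neural relative of Arnt, stood at 0.280 ± 0.0341 and 0.695 ± 0.149 FPKM (SD, n = 4 each). Kynu, a gene of kynurenine breakdown, stood at 0.0991 ± 0.0357 and 0.362 ± 0.0843 FPKM.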
